A study of Oryza sativa with 5 samples.

Results

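Transcript levels of 82 chitinase, glucanase and other pathogenesis-related (PR) protein genes were followed in tag libraries of seedlings of 5 rice genotypes. The genes were all those whose description in the deposited tables contains chitinase, thaumatin, glycosyl hydrolases family 17, pathogenesis-related, Bet v I or wound-induced, and does not contain SCP-like. They are 82 of the 22546 genes with a tag in any library. By these descriptions, 15 genes encode chitinases, 25 encode family 17 glycosyl hydrolases (glucanases), 25 encode thaumatin or thaumatin-like proteins, 12 encode Bet v I or PR-10 proteins, and 5 encode wound-induced proteins. The rule uses no measured value.

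The 5 genotypes were the indica varieties MH63 and ZS97, their hybrid SY63 (ZS97 as the female and MH63 as the male parent), and hybrids with raised or reduced expression of OsHDT1, a plant-specific histone deacetylase gene of the HD2 class. In FU the OsHDT1 cDNA was driven by the maize ubiquitin promoter, and in FR an OsHDT1 RNAi construct was driven by the CaMV 35S promoter; both promoters are active in most tissues. Both constructs had been introduced into MH63, which then served as a parent of the hybrid. Each genotype had 1 library of seedlings, aged 15 days and grown on MS medium at reduced strength with 15 h of light at 30 °C and 9 h of darkness at 25 °C. The sample labels write FV where the study writes FU. All seedlings were harvested in the late afternoon of the subjective day. Which transgenic line was used, how many plants were pooled and whether roots were included were not given in the sources used here.

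PR proteins are small, mostly secreted proteins that plants make in larger amounts after attack by pathogens, and many are also made during development, wounding or senescence. Chitinases cut chitin, a polymer of fungal cell walls and insect cuticles that plants lack, and β-1,3-glucanases of glycosyl hydrolase family 17 cut a second fungal wall polymer but also callose, a wall polymer of the plant itself. Thaumatin-like proteins form the PR-5 family, and Bet v I proteins, named after a birch pollen allergen, form the PR-10 family of proteins that stay inside the cell. The gene descriptions assign a family, not a tested activity.

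The libraries held between 4821637 and 5022081 clean tags, and 3396913 to 3712043 of these lay on genes. A level is the number of unambiguous tags of a gene per 1000000 clean tags (TPM). Each transcript can give 1 tag next to a site near its 3′ end, so this level does not grow with transcript length. A count of 0 allows up to 3 tags, or 0.597 to 0.622 TPM, and no gene had exactly 1 tag in any library. This limit covers counting only. Tags with more than 1 mismatch to the reference were not counted, so a count of 0 does not by itself show a low transcript level. With 1 library per genotype there was no replicate check: the tests compared libraries and not genotypes, and all intervals are 95% intervals that cover counting error only. A gene was called different between 2 libraries at a false discovery rate (FDR) of at most 0.001 in the exact test of Audic and Claverie, adjusted over all genes with a tag in either library, together with a difference of at least 2-fold. FU, FR, MH63 and ZS97 were all compared with the same SY63 library, so these comparisons are not independent of each other. In RNA of mixed seedling tissues, fewer cells of a type and less RNA per cell cannot be told apart.

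OsHDT1 (LOC_Os05g51830) was at 1574 TPM in FU, 88.1 in SY63 and 28.3 in FR, in the order of the labels. It was at 61.3 TPM in ZS97 but at 524 in the library labelled MH63, whose label names the cultivar and does not mention a construct. The study itself saw no clear difference in OsHDT1 transcript between MH63 and SY63 by qRT-PCR, unlike these libraries. Its Western blots of leaves gave none in protein among MH63, ZS97 and SY63. Whether 524 TPM is typical of MH63 was not settled here, so every ratio with MH63 below compares the library of that label. The MH63 library also stood apart in the summed level of 17 chlorophyll A-B binding protein genes of green tissue. All had tags in every library, and the sum was 5004 TPM in MH63 against 10928 (FR) to 14796 (ZS97) in the others. Exceptions were LOC_Os01g64960, at 502 TPM in MH63 and 295 (FU) to 546 (ZS97) elsewhere, and LOC_Os09g12540, at 23.5 and 18.7 (FU) to 25.8 (ZS97). Of 9 root genes looked for, 2 were found, with a summed level of 13.1 (MH63) to 28.9 TPM (FR). Scaling by trimmed means (TMM) in place of clean tags moved every log2 ratio of MH63 to ZS97 by -0.19 and of SY63 to MH63 by 0.14. The part of these differences in the results with MH63 was not tested; the comparisons of SY63 with ZS97 and of the 3 hybrid libraries with each other do not use the MH63 library.

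Most of the genes had low levels in seedlings. In all, 59 of the 82 had a tag in every library, 64 reached 10 tags in at least 1 library, 18 stayed under 10 tags in every library, and 6 of these never had more than 3. The 3 genes with the highest mean levels were of different families: LOC_Os04g39150, a Bet v I gene, had a mean of 185 TPM over the 5 libraries, LOC_Os01g64170, a glucanase gene, 90.6, and LOC_Os03g14050, a thaumatin-like gene, 80.3. The chitinase gene with the highest mean level was CHIT12 (LOC_Os08g41100), at 37.9 (SY63) to 63.9 TPM (FU), and the median over the 82 genes was 5.09 TPM. Altogether 32 of the 82 genes (39.0%) were called in at least 1 of the 7 comparisons made below, beside 25.7% of all 22546 genes.

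**Figure D1:**
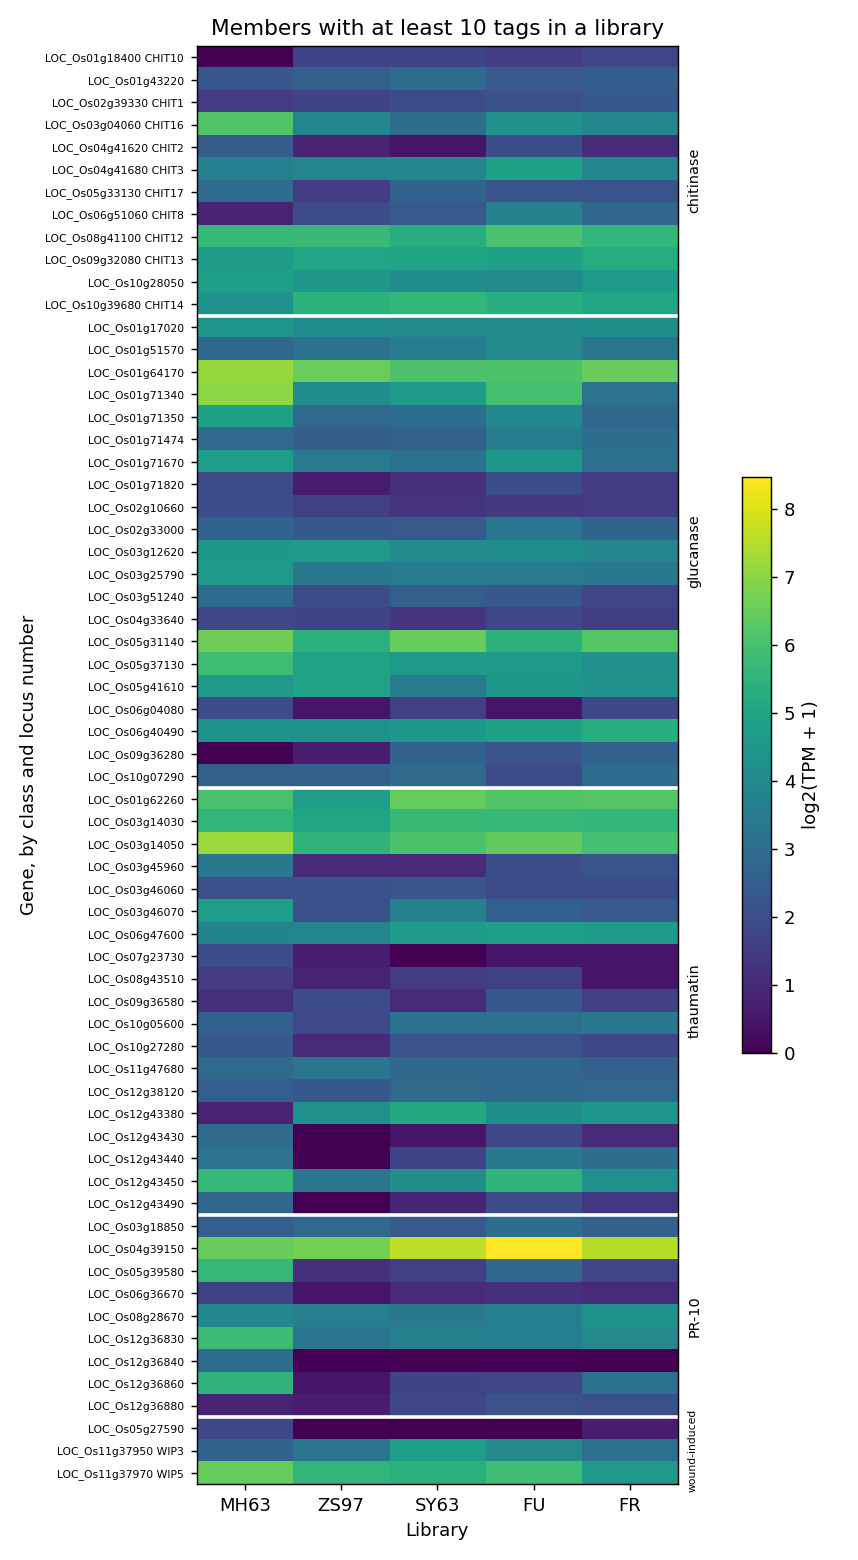
Levels of the 64 genes that reached 10 tags, as log2(TPM + 1) on the colour scale, with 1 row per gene ordered by class and locus number and 1 column per library. The brightest cell is LOC_Os04g39150 in FU (351 TPM), and 31 of the 64 rows have their highest value in MH63, as have 38.4% of all 17507 genes with 10 tags.

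Summed over all 82 genes, the level was 1618 TPM in MH63 and 870.2 in ZS97, and 1146, 1420 and 1107 TPM in SY63, FU and FR. The order was not the same in each class. The chitinase sum varied least, from 177 TPM in SY63 (interval 165 to 189) to 222 in FU (209 to 235), with 221 in MH63. The glucanase sum was 623 TPM in MH63 and between 323 and 375 in the other 4 libraries. The thaumatin sum was lowest in ZS97, at 172 TPM, and between 292 and 409 elsewhere. The PR-10 sum was highest in FU, at 396 TPM (379 to 415), where LOC_Os04g39150 alone stood at 351. Without that gene the PR-10 sum was 179 TPM in MH63 and 30.1 (ZS97) to 56.1 TPM (FR) elsewhere. The wound-induced sum ranged from 32.1 TPM in FR (27.4 to 37.5) to 97.2 in MH63 (88.7 to 106). These sums carry no test, since there was 1 library per genotype.

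**Figure D2:**
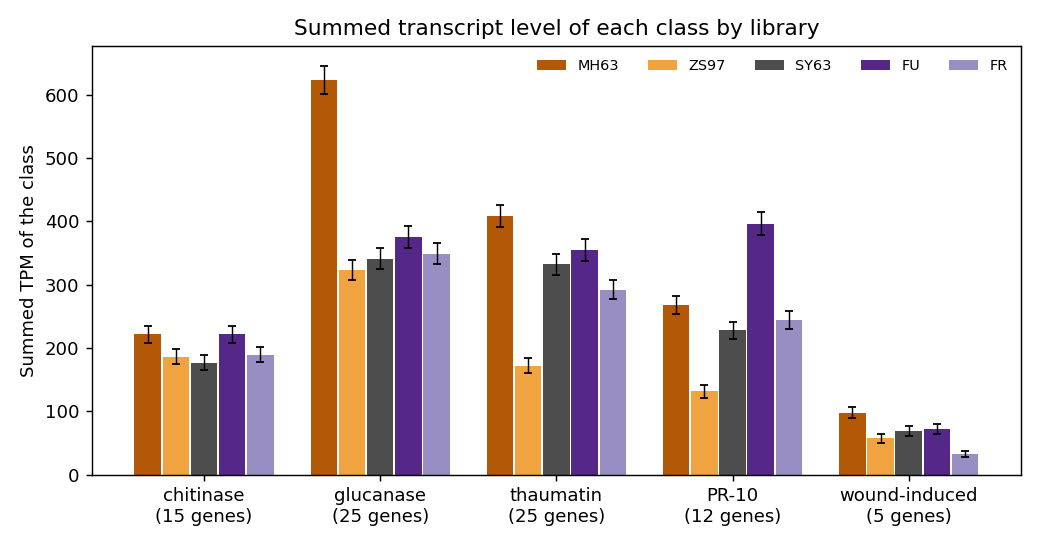
Summed level in TPM of each of the 5 classes (number of genes under each name) in the 5 libraries. Bars start at 0 and the whiskers are exact 95% Poisson intervals of the summed tag count. MH63 is highest for glucanases (623 TPM), thaumatins (409 TPM) and wound-induced genes (97.2 TPM), and FU for PR-10 genes (396 TPM).

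The first question was how the parents differ, as far as the library labelled MH63 stands for that parent. Between it and ZS97, 22 of 77 genes tested were called, 20 higher and 2 lower in MH63. That is 28.6% of the genes tested, beside 17.5% of all genes, and 10.7% of all genes were called higher and 6.86% lower. Under TMM scaling the balance over all genes turned, to 7.63% higher and 9.11% lower (7.78% and 8.9% with DESeq2 size factors), while 18 of the 82 genes were called higher and 3 lower. The median log2 ratio was 0.59, beside 0.18 over all genes tested. The 20 higher genes were 2 of 14 chitinases, 5 of 24 glucanases, 8 of 23 thaumatins, 4 of 11 PR-10 genes and 1 of 5 wound-induced genes. The exceptions in the other direction were the chitinase CHIT14 and the thaumatin LOC_Os12g43380.

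PR-10 genes gave the largest ratios between the parents. LOC_Os12g36860, described as pathogenesis-related protein 10, had 221 tags (44.0 TPM) in MH63 and 2 tags in ZS97, beside 11, 12 and 38 tags in SY63, FU and FR. Its log2 ratio of MH63 to ZS97 was 6.78 (4.90 to 9.82), wide because of the 2 tags. LOC_Os05g39580 had 244 tags (48.6 TPM) in MH63 and 6 in ZS97, beside 10, 29 and 12 in SY63, FU and FR, a 40.2-fold difference between the parents (log2 5.33, interval 4.18 to 6.79). For both genes the other 4 libraries stood far below MH63 but also differed among themselves, with FR next for the first gene and FU next for the second. LOC_Os12g36830 was likewise highest in MH63 and lowest in ZS97, with 54.4 TPM in MH63 and 8.88, 12.2, 11.6 and 15.0 TPM in ZS97, SY63, FU and FR, and was 6.12-fold higher in MH63 than in ZS97. LOC_Os12g36840 had tags in MH63 only, 35 of them (6.97 TPM). That level was 11.5-fold higher than the 3 tags that a count of 0 allows in ZS97. The lower limit of its log2 ratio was 3.15. The most abundant PR-10 gene, LOC_Os04g39150, was alike in the parents, at 89.4 TPM in MH63 and 101 in ZS97.

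Among the glucanases, LOC_Os01g71340 differed most between the parents. Its level was 128 TPM in MH63 and 16.3 in ZS97, and it was 23.9, 61.0 and 8.38 TPM in SY63, FU and FR. MH63 was 7.81-fold above ZS97 (log2 2.97, interval 2.63 to 3.32). Its neighbour LOC_Os01g71350 was at 27.7 TPM in MH63 and 6.46 in ZS97, a 4.28-fold difference, and LOC_Os01g71670 at 26.1 and 9.88 TPM, a 2.64-fold difference. LOC_Os05g31140 (98.4 and 42.4 TPM) and LOC_Os03g25790 (22.3 and 9.48 TPM) were also called higher in MH63. Several well-expressed glucanase genes were not called between the parents: LOC_Os01g64170 was at 137 and 91.4 TPM, LOC_Os05g37130 at 56.4 and 28.2 TPM, just under 2-fold, and LOC_Os06g40490 at 18.7 and 19.6 TPM.

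The thaumatin genes held both the largest block of increases and the largest decrease. LOC_Os03g14050, thaumatin-like protein 1, was at 145 TPM in MH63 and 44.8 in ZS97 (3.23-fold), and LOC_Os01g62260 at 65.1 and 25.8 TPM (2.52-fold). LOC_Os12g43450 was at 50.4 and 9.08 TPM (5.55-fold), LOC_Os03g46070 at 25.5 and 3.23 TPM (7.89-fold), and LOC_Os03g45960 at 9.56 and 1.01 TPM (9.47-fold). On chromosome 12, LOC_Os12g43430, LOC_Os12g43440 and LOC_Os12g43490 had 34, 42 and 30 tags in MH63 and none in ZS97. Set against 3 tags in ZS97, these levels were 11.2-, 13.8- and 9.87-fold higher. The lower limits of their log2 ratios were 3.11, 3.43 and 2.92. LOC_Os12g43380 went the other way, with 4 tags in MH63 and 90 in ZS97 (18.2 TPM), 22.7-fold lower in MH63. Tags of all genotypes had been matched to the same reference annotation, which the paper describes as japonica, while both parents are indica. A transcript without a tag that matched this reference was not counted, whatever its level. Whether this applied to these genes, or to the PR-10 genes LOC_Os12g36840 and LOC_Os12g36860, was not tested. The folds for genes with few or no tags in a parent therefore compare tag counts.

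The chitinases differed less. CHIT16 (LOC_Os03g04060) was at 70.9 TPM in MH63 and 13.9 in ZS97, and at 7.41, 18.5 and 14.6 TPM in SY63, FU and FR. It was 5.09-fold higher in MH63 than in ZS97 (log2 2.35, interval 1.97 to 2.74). CHIT14 (LOC_Os10g39680) was lower in MH63, with 18.9 TPM there against 41.6 in ZS97, and 47.6, 38.6 and 30.9 TPM in the hybrids SY63, FU and FR (log2 ratio to ZS97 -1.13, interval -1.50 to -0.78). CHIT17 (LOC_Os05g33130) had 34 tags in MH63 and 9 in ZS97 and was called higher, but its call was lost under each of 3 other scalings (TMM, DESeq2 size factors, and totals of tags on genes). CHIT12, with 49.6 TPM in MH63 and 50.8 in ZS97, and CHIT13 (LOC_Os09g32080), with 24.5 and 30.5, were not called. CHIT10 (LOC_Os01g18400) had no tag in MH63 and 9 to 12 tags in each other library and was called lower in MH63 only under TMM and DESeq2 scaling. In the tables, 6 of the 15 chitinase genes are annotated with both chitin binding and chitinase activity, 3 with chitinase activity alone and 6 with neither. WI12 (LOC_Os05g27590), the wound-induced gene called, had 13 tags in MH63 and none in ZS97, and lost its call under the same 3 scalings. With an assumed coefficient of variation of 0.2 between samples of a genotype, the edgeR exact test called 14 genes between the parents, beside 4.61% of all genes. With 0.4 it called 2, beside 0.944% of all genes.

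**Figure D3:**
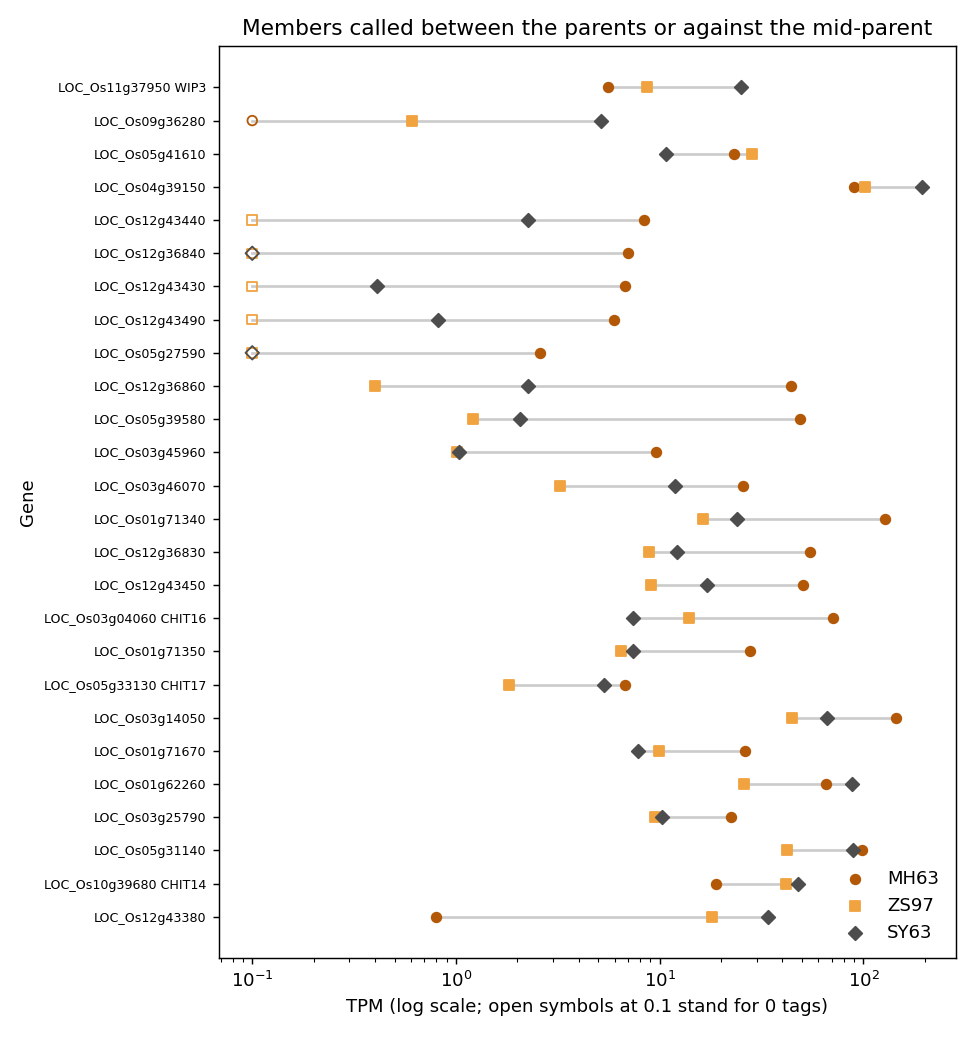
Levels in TPM (log axis) of the genes called between the parents or between SY63 and the mid-parent, with 1 row per gene, circles for MH63, squares for ZS97 and diamonds for SY63. Open symbols at 0.1 stand for a count of 0. In most rows the circle lies to the right, while CHIT14 and LOC_Os12g43380 have it to the left, and SY63 lies beyond both parents for WIP3 (25.1 TPM) and LOC_Os04g39150 (194 TPM).

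The next question was where the hybrid stands between its parents. SY63 was far from MH63, with 28 of 78 genes tested called, 5 higher and 23 lower in SY63 (35.9%, beside 16.5% of all genes; 7.1% of all genes were called higher and 9.37% lower). It was near ZS97, with 6 of 73 called, 5 higher and 1 lower (8.22%, beside 3.95% of all genes, 2.88% higher and 1.07% lower). The median log2 ratios were -0.44 to MH63 and 0.45 to ZS97, beside -0.09 and 0.04 over all genes tested. For all genes, the paper's text names more genes up than down in SY63 against MH63, and fewer up than down against ZS97. The counts here ran the other way, with 1488 higher and 1962 lower against MH63, and 598 higher and 222 lower against ZS97. The reason was not tested. In 25 of the 64 genes that reached 10 tags in any library, the SY63 level lay between those of the parents. The same share was not counted over all genes, so this count shows nothing particular to these genes. By class, 2 of 13 chitinases, 7 of 25 glucanases, 8 of 24 thaumatins, 4 of 11 PR-10 genes and 2 of 5 wound-induced genes were called lower in SY63 than in MH63. Under TMM or DESeq2 scaling, 22 genes were called against MH63, 6 higher and 16 lower, while the balance over all genes turned, to 8.88% higher and 6.97% lower with TMM and 8.77% and 7.03% with DESeq2 size factors. The calls lost were those of the glucanases LOC_Os01g64170, LOC_Os03g25790 and LOC_Os05g41610, the thaumatins LOC_Os03g14050 and LOC_Os03g46070, WIP5 and the WI12 gene LOC_Os05g27590, and the call gained was the thaumatin LOC_Os06g47600, which was higher (log2 1.06 with TMM).

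Against the mid-parent, the mean of the MH63 and ZS97 levels, 15 of 79 genes were called, 4 higher and 11 lower in SY63. That is 19% of the genes tested, beside 6.34% of all genes, with 2.85% of all genes higher and 3.49% lower (3.1% and 2.89% with TMM, under which 5 and 10 of the 82 genes were called). The 11 lower genes were 1 chitinase, 4 glucanases, 2 thaumatins and 4 PR-10 genes. In most of them the SY63 level was close to that of ZS97, the parent with the lower level, while the mean was set by MH63. Thus LOC_Os05g39580 had a mid-parent level of 24.9 TPM and 2.06 TPM in SY63 (log2 -3.60, interval -4.68 to -2.70), and LOC_Os12g36860 had 22.2 and 2.26 TPM (log2 -3.30, interval -4.33 to -2.44). LOC_Os01g71340 was 3.01-fold below its mid-parent level of 72.0 TPM, and the thaumatin LOC_Os03g45960 was 5.13-fold below its level of 5.29 TPM. CHIT16 was lower in SY63 than in either parent, 5.72-fold below the mid-parent level of 42.4 TPM (log2 -2.52, interval -3.06 to -2.03). Its log2 ratio to ZS97 was -0.91 (-1.53 to -0.31) and was not called. Under the 3 other scalings, the thaumatin LOC_Os12g43430 lost its mid-parent call and LOC_Os01g62260 gained one, higher in SY63.

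Only LOC_Os05g41610, a glucanase gene, was called lower than both parents. It was at 23.1 TPM in MH63, 28.2 in ZS97 and 10.7 in SY63, and at 21.4 in FU and 18.4 in FR. SY63 was 2.16-fold below MH63 (a call lost under TMM and DESeq2 scaling) and 2.64-fold below ZS97 (log2 -1.40, interval -1.89 to -0.93). The SY63 library is thus the low one of 5 for this gene.

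The 4 genes called above the mid-parent came from 4 classes. WIP3 (LOC_Os11g37950), a wound-induced protein precursor, was at 5.58 TPM in MH63, 8.67 in ZS97 and 25.1 in SY63. It was called above both parents, 4.50-fold above MH63 and 2.90-fold above ZS97 (log2 1.53, interval 1.02 to 2.07). The glucanase LOC_Os09g36280 had 0 tags in MH63 and 3 in ZS97, but 25, 18 and 27 in SY63, FU and FR, and was also called above both parents. SY63 was 8.62-fold above 3 tags in MH63 (lower limit of the log2 ratio 2.70). The log2 ratio of SY63 to ZS97 was 3.08 (1.38 to 5.46). All 3 hybrid libraries were alike for this gene, and both parental libraries were at or under the limit that a count of 0 allows. LOC_Os04g39150 was at 194 TPM in SY63 against 89.4 and 101 in the parents, 2.03-fold above the mid-parent (log2 1.02, interval 0.89 to 1.15). Its ratio to ZS97 fell short of 2-fold. The thaumatin LOC_Os12g43380 was at 34.0 TPM in SY63, 42.5-fold above MH63 and, at log2 0.90 (0.52 to 1.29), not called against ZS97.

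Of the genes called higher in SY63 than in ZS97, LOC_Os01g62260 was at 87.9 TPM in SY63 against 25.8 (3.40-fold), LOC_Os03g46070 at 11.9 against 3.23 (3.70-fold) and LOC_Os05g31140 at 88.9 against 42.4 (log2 1.07). In these 3 genes MH63 also stood above ZS97, while for the other two, WIP3 and LOC_Os09g36280, it did not. No chitinase or PR-10 gene was called between SY63 and ZS97, of 14 and 9 tested. Only 3.95% of all genes were called in this comparison, so the lack of calls among so few genes does not set these classes apart. With an assumed coefficient of variation of 0.2, the edgeR exact test called no gene of the 82 between SY63 and ZS97, beside 0.635% of all genes. In that test 14 of 73 had an unadjusted p under 0.05, 13 of them higher, and 3 of 73 did at 0.4. Unadjusted counts were not made over all genes, so these show nothing particular to the 82.

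The transgenic hybrids were compared with SY63 to see which genes differed in hybrids with raised or reduced OsHDT1. Their MH63 parents came from transformed lines, that of SY63 did not, and no transgene-negative hybrid had a library. Effects of OsHDT1, of transformation and of the line used therefore cannot be told apart. In FU, 7 of 74 genes tested were called, 6 higher and 1 lower (9.46%, beside 3% of all genes, with 2.19% higher and 0.807% lower). The median log2 ratio was 0.15, beside 0.06 over all genes tested. The 6 higher genes were the chitinases CHIT16 and CHIT8, the glucanases LOC_Os01g71340 and LOC_Os01g71670, and the thaumatins LOC_Os12g43440 and LOC_Os12g43450. The gene called lower was the glucanase LOC_Os05g31140. No PR-10 gene (of 9) and no wound-induced gene (of 4) was called.

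In FR, 3 of 77 genes were called and all were lower than in SY63 (3.9%, beside 1.16% of all genes, with 0.585% higher and 0.576% lower). They were LOC_Os01g71340, the thaumatin LOC_Os03g46070 and WIP3. Between FU and FR, 5 of 77 were called, all higher in FU (6.49%, beside 3.22% of all genes, with 2.54% higher and 0.683% lower). These were LOC_Os01g71340, LOC_Os01g71350, LOC_Os01g71670, LOC_Os12g43450 and WIP5. No chitinase was called in FR against SY63 or between FU and FR.

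LOC_Os01g71340 was the gene called in all 3 of these comparisons, in opposite directions against SY63. With 116 tags in SY63, 294 in FU and 42 in FR, it was 2.55-fold higher in FU (log2 1.35, interval 1.04 to 1.68) and 2.85-fold lower in FR (log2 -1.51, interval -2.06 to -0.99). FU exceeded FR 7.28-fold (log2 2.86, interval 2.39 to 3.37), and this was the 1 call made with an assumed coefficient of variation of 0.2. Its level thus followed the order of the OsHDT1 level in these 3 libraries, which the calls that singled it out already imply. The order did not extend to MH63. The gene was at 128 TPM there and 61.0 in FU, while OsHDT1 was at 524 and 1574 TPM. LOC_Os01g71670 was at 7.82 TPM in SY63, 22.0 in FU and 7.78 in FR, so that FR and SY63 did not differ beyond counting error (log2 ratio of FU to SY63 1.49, interval 0.94 to 2.07). LOC_Os01g71350 was at 7.41 TPM in SY63, 14.3 in FU and 6.19 in FR. It was called between FU and FR (2.31-fold), but not under TMM, DESeq2 or gene-tag scaling.

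LOC_Os05g31140 was the exception among the glucanases. It was at 88.9 TPM in SY63, 42.7 in FU and 73.6 in FR, a 2.08-fold decrease in FU (log2 -1.06, interval -1.30 to -0.82). The FU level was close to that of ZS97, at 42.4 TPM. LOC_Os06g40490 was highest in FR, with 39.7 TPM against 21.8 in SY63 and 27.4 in FU, and stayed under 2-fold (log2 0.86, interval 0.52 to 1.22).

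The chitinase CHIT8 (LOC_Os06g51060) had 4 tags in MH63 and 14 in ZS97, and 21, 60 and 30 in SY63, FU and FR. FU was 2.88-fold above SY63 (log2 1.53, interval 0.79 to 2.32), and the FR ratio of 0.47 had an interval of -0.38 to 1.35. CHIT16 was 2.49-fold higher in FU than in SY63 (log2 1.32, interval 0.74 to 1.92). It had a log2 ratio of 0.98 (0.38 to 1.59) in FR, where it was not called, so SY63 was the lowest library of 5. CHIT3 (LOC_Os04g41680), with 70 tags in SY63, 133 in FU and 70 in FR, and CHIT12, with 184, 308 and 240 tags, passed the FDR in FU against SY63 but not the 2-fold threshold.

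The thaumatin LOC_Os12g43440 had 11 tags in SY63, 47 in FU and 37 in FR. It was called 4.31-fold higher in FU (log2 2.11, interval 1.14 to 3.20), and its FR ratio of 1.71 (0.70 to 2.82) did not pass the FDR. LOC_Os12g43450 was at 17.1 TPM in SY63, 45.6 in FU and 18.2 in FR. It was 2.67-fold higher in FU than in SY63 and 2.51-fold higher than in FR, so FR and SY63 stood together. LOC_Os03g46070 was low in both transgenic hybrids, with 58 tags in SY63, 25 in FU and 21 in FR. It was called only in FR (log2 -1.51, interval -2.31 to -0.77), while the FU ratio was -1.20 (-1.94 to -0.50). FU and FR themselves differed by a log2 ratio of 0.31 (-0.59 to 1.22) and were not called apart. LOC_Os12g43380 was at 34.0 TPM in SY63 and at 17.2 and 20.9 TPM in FU and FR, and was called lower in FU only under TMM and DESeq2 scaling (log2 -1.03 and -1.05).

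WIP3 was at 25.1 TPM in SY63, 14.9 in FU and 7.58 in FR. It was 3.31-fold lower in FR (log2 -1.73, interval -2.29 to -1.19), near its parental levels, and not called in FU. WIP5 (LOC_Os11g37970) was at 88.2 TPM in MH63 and 46.8 in ZS97, and at 41.0, 55.4 and 22.8 TPM in SY63, FU and FR. Neither transgenic hybrid was called against SY63, but FU was 2.43-fold above FR (log2 1.28, interval 0.96 to 1.61). Both genes thus had their lowest hybrid level in FR. LOC_Os04g39150, the most abundant gene of the 82, had 941 tags in SY63, 1694 in FU and 943 in FR. It passed the FDR in FU but stayed under 2-fold and was not called: its log2 ratio was 0.86 (0.74 to 0.98) in FU and -0.04 (-0.17 to 0.09) in FR.

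**Figure D4:**
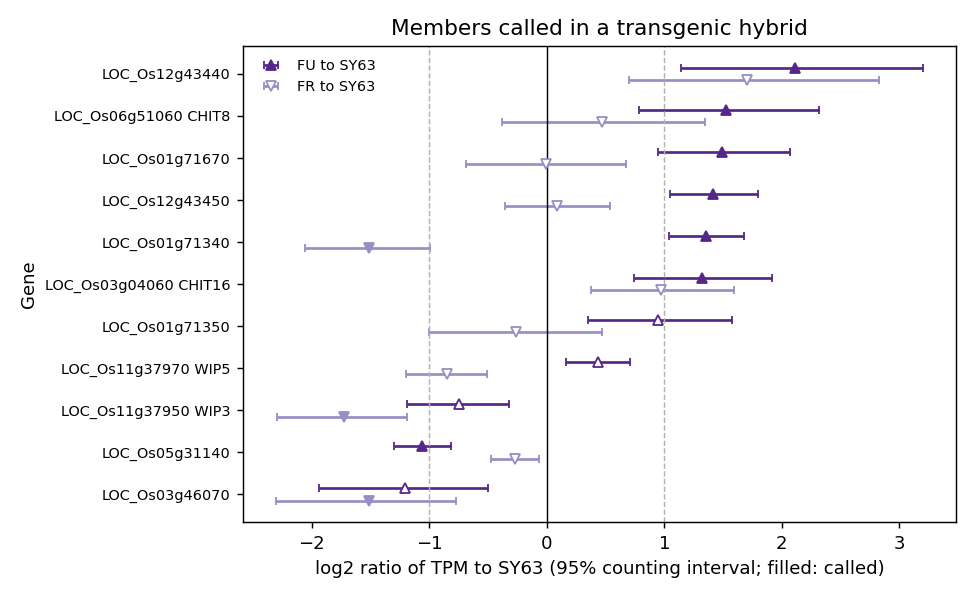
Log2 ratios of FU (upward triangles) and FR (downward triangles) to SY63 for the 11 genes called in FU, in FR or between them, with 95% counting intervals. Filled symbols were called against SY63 and dashed lines mark a 2-fold difference. LOC_Os01g71340 lies at 1.35 in FU and -1.51 in FR, and for LOC_Os12g43440 and CHIT16 both ratios lie above 0.

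These calls rest on counting error alone. With an assumed coefficient of variation of 0.2 between samples, the edgeR exact test called no gene of the 82 in FU or in FR against SY63. Of all genes it called 0.169% and 0.019%. In that test 18 of 74 (13 higher, 5 lower) and 10 of 77 (5 higher, 5 lower) had an unadjusted p under 0.05. Such counts were not made over all genes, so they show nothing particular to these genes. Summed chlorophyll A-B binding gene levels were 14174 TPM in SY63, 13278 in FU and 10928 in FR, and their part in the differences was not tested.

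Many of the genes have locus numbers near each other, and 34 of the 82 fall into 13 groups with successive locus numbers no more than 100 apart. Genes of a group need not be adjacent or of the same family. For example, the wound-induced gene LOC_Os03g18770 was grouped with the Bet v I gene LOC_Os03g18850. Genes in such groups can be near-identical copies, and tags shared by several genes had been removed, so the level of a single copy is uncertain and the counts of neighbours are not independent. In the thaumatin group on chromosome 12, LOC_Os12g43430, LOC_Os12g43440, LOC_Os12g43450 and LOC_Os12g43490 had the same order of libraries in outline: high in MH63, lowest in ZS97, and with more tags in FU than in SY63. LOC_Os12g43490 had 30 tags in MH63 and 0 in ZS97, and 4, 14 and 8 in SY63, FU and FR. LOC_Os12g43430 had 34 and 0 tags in the parents and 2, 12 and 5 in those hybrids. Neither was called between FU and SY63. The fifth gene of the group, LOC_Os12g43380, had the opposite order, with its lowest level in MH63 and its highest in SY63.

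The PR-10 group on chromosome 12 also had a member with its own order. LOC_Os12g36830, LOC_Os12g36840, LOC_Os12g36850 and LOC_Os12g36860 had their highest level in MH63, while LOC_Os12g36880 had 4 and 3 tags in the parents MH63 and ZS97 and 12, 17 and 16 in SY63, FU and FR. LOC_Os12g36850 had 9 tags in MH63, 7 in FR and none in the other libraries. For LOC_Os12g36860 the 38 tags in FR against 11 in SY63 gave a log2 ratio of 1.75 (0.75 to 2.86), which was not called. In the wound-induced group on chromosome 11, WIP3 and WIP4 (LOC_Os11g37960) were highest in SY63, the latter with 9 tags against 0 to 3 elsewhere, and WIP5 was highest in MH63. Both glucanases LOC_Os01g71340 and LOC_Os01g71350 had the order MH63, FU, SY63, ZS97 and FR, from high to low, although the last 3 levels of LOC_Os01g71350, 6.19 to 7.41 TPM, did not differ beyond counting error.

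**Figure D5:**
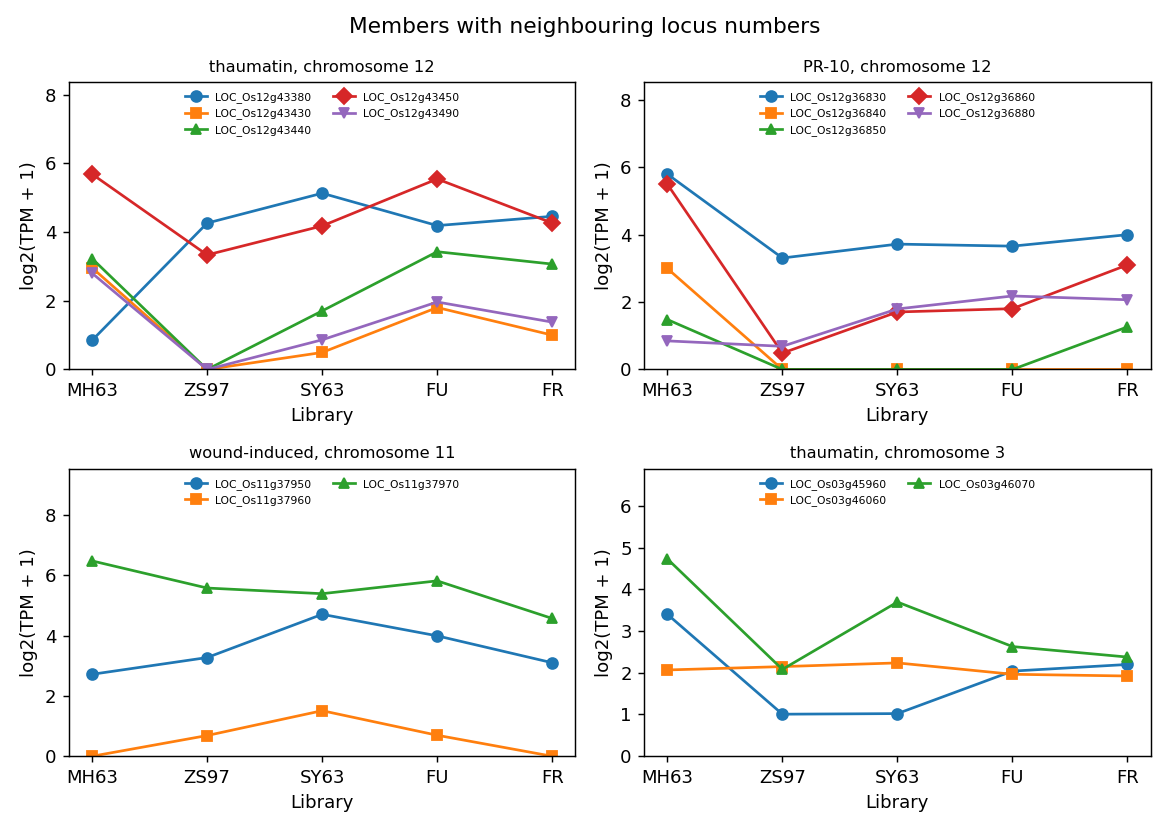
Levels as log2(TPM + 1) of genes with neighbouring locus numbers in the 5 libraries, for 4 groups on chromosomes 12, 11 and 3. Each line is 1 gene, and lines only join the values of a gene across libraries. In the first panel LOC_Os12g43380 is lowest in MH63, where the other 4 thaumatin genes are high, and in the second LOC_Os12g36840 is at 0 outside MH63.

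Other PR families, taken by words in the descriptions, were read beside the 82 genes and beside the shares of all genes called, 10.7% higher and 6.86% lower in MH63 against ZS97, 2.19% higher and 0.807% lower in FU against SY63, 2.54% higher in FU against FR, and 1.16% in either direction in FR against SY63. The median log2 ratios over all genes tested were 0.18 between the parents and 0.06 in FU. Genes of the PR-1 family (SCP-like proteins) numbered 14, of which 5 of 11 tested stood higher in MH63 when set against ZS97 (median 2.45) and 3 of 12 higher in FU than in SY63 (median 1.28), all by calls, with none lower in either. Among 9 Bowman-Birk protease inhibitor genes (PR-6), 7 were called higher in FU than in SY63 (median 1.71) and 8 higher in FU than in FR, and 1 was called lower in FR. Of 7 thionin genes (PR-13), which encode small toxic peptides, 2 were called higher in FU (median 1.90). Among 91 peroxidase precursor genes (PR-9), 20 of 79 tested were higher and 1 lower in MH63 (median 0.55), while in FU 3 of 80 were higher and 1 lower (median 0.38), shares near those of all genes. The 84 lipid transfer protein-like genes (PR-14) had 16 higher and 3 lower of 70 between the parents (median 0.65) and 5 higher and 4 lower of 79 in FU (median 0.30). Germin or cupin genes (PR-15 and PR-16) had 9 of 38 higher in MH63 (median 0.50) and 3 of 33 higher in FU (median 0.35). Of 4 defensin genes (PR-12), 3 were higher in MH63 and none was called in FU or FR against SY63. No LysM gene, of a family that includes chitin receptors, was called between the parents (of 9) or in FU or FR against SY63 (of 10 each). In FR against SY63, 1 SCP-like, 1 Bowman-Birk and 1 peroxidase gene were called lower and 1 peroxidase gene higher, and no thionin, lipid transfer, germin or defensin gene was called. These shares were read with clean-tag scaling alone.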

How the data were processed

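Tag libraries were made by the study from NlaIII-cut cDNA, and tags excised with MmeI were read on an Illumina sequencer. The authors matched clean tags to the cDNAs of the MSU rice annotation, release 6.1, with at most 1 mismatch and removed tags of several genes; the matching software was not given in the sources used here. The deposited count is the number of unambiguous clean tags per gene, and the deposited TPM is this count per 1000000 clean tags of the library. The tables also hold the authors' log2 ratios, p-values and FDR for 5 pairs, which were not used. Genes missing from a table were set to 0 tags, and no column was left unmapped.

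Library totals were recovered from the counts and TPM values. Tag counts of library pairs were compared with Audic and Claverie's exact test (2-sided), with Benjamini-Hochberg adjustment over every gene that had a tag in the pair. Genes were called at an FDR no higher than 0.001 where TPM values differed at least 2-fold (a log2 ratio of 1), a TPM of 0 being set to 0.01. The mid-parent test set SY63 tags against the summed tags of both parents. The quasi-likelihood test of edgeR could not be fitted with 1 library per genotype. Intervals are exact Poisson (levels) and exact binomial (ratios), and where a library had no tags a fold is given against 3 tags in that library. The test was also run on simulated counts that held counting error alone, with large changes planted in genes with many tags. That run cannot speak for the spread between plants, for low counts or for 2-fold calls. Python 3.11.15 with scipy 1.17.1, and R 4.3.3 with edgeR 4.0.16 and DESeq2 1.42.0, were used.

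The members and lists were chosen with earlier results of these data known. Genes were named if called in FU or FR, called against the mid-parent or outside both parents (with 20 tags), among the 5 largest ratios per direction between parents and hybrid, strongly unequal between the parents (50 tags against at most 3), or among the 3 most abundant of a class. Others, such as CHIT3, CHIT10, CHIT17, LOC_Os06g40490, LOC_Os12g36850, LOC_Os12g36880, WIP4 and WI12, were added after their values were seen. LOC_Os12g36860, described as pathogenesis-related protein 10, was counted with the Bet v I genes. Alternatives were other scalings (tags on genes, TMM, DESeq2 size factors), 1 added to each TPM, a minimum of 10 tags, an FDR of 0.05, and the edgeR exact test with assumed coefficients of variation of 0.2 and 0.4. No sequences or coordinates were used.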

Additional observations from a re-analysis of the deposited data

How the results depend on the processing

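No paired analysis was possible because there was 1 library per genotype. Counts of called genes stayed within 1.5 times under the 3 other scalings, with 1 added to every TPM and with a minimum of 10 tags, and no called ratio changed sign in any of these. With an assumed coefficient of variation of 0.2 the edgeR exact test called 14 genes between MH63 and ZS97, 11 between SY63 and MH63, 0 between SY63 and ZS97, 0 in FU and 0 in FR against SY63, 1 between FU and FR, and 4 against the mid-parent, beside 4.61%, 3.31%, 0.635%, 0.169%, 0.019%, 0.169% and 0.656% of all genes. At 0.4 these were 2, 1, 0, 0, 0, 0 and 0, beside 0.944%, 0.411%, 0.0529%, 0.00469%, 0%, 0.00471% and 0% of all genes. Of 77, 78, 73, 74, 77, 77 and 79 genes tested, 20, 20, 3, 3, 2, 3 and 15 had an unadjusted p under 0.05. Unadjusted counts were not made over all genes, so those at 0.4 show nothing particular to the genes followed here. At an FDR of 0.05 the test of Audic and Claverie called 15 of 74 genes in FU (6.94% of all genes), 7 of 77 in FR (3.61%), 12 of 77 between FU and FR (6.92%), and 25 of 79 against the mid-parent (11.5%). The summed level of all members, scaled in ways chosen after seeing the data, ranged from 1490 to 1552 TPM in MH63 and from 887 to 912 in ZS97. Depth limits calls to genes with about 10 tags or more, since the smallest called gene of a pair had between 12 and 14 tags over both libraries. Spread between plants of a genotype is not measured.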

Other observations

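Another 5 genes are described as wound induced, with a space in place of a hyphen, and would bring the number of genes to 87. LOC_Os04g54300 had the most tags, with 512 in MH63 and 116 in ZS97, and 149, 234 and 235 in SY63, FU and FR. LOC_Os04g54240 had 78 and 17 tags in the parents and 42, 22 and 96 in SY63, FU and FR, so that its highest count was in FR and its lowest in ZS97. LOC_Os06g46970 had 75 and 44 tags in the parents and 45, 35 and 65 in the hybrids, highest in MH63 and lowest in FU. The other two, LOC_Os02g06560 and LOC_Os04g54230, had 8 to 18 and 13 to 28 tags. All 5 had tags in every library, and they were not counted or tested with the 82 genes.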
